A study of Mus musculus with 12 samples.

Results

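Memory-phenotype CD4 T cells low in CD62L were compared with those high in CD62L, at high PSGL1 in both. The comparison takes the 3 arrays titled CD62Llo PSGL1hi and the 3 titled CD62Lhi PSGL1hi, 6 of the 12 arrays of the series, and covers 18193 named genes. Both populations were sorted from spleens of female MRL/Faslpr mice aged 16 to 24 weeks, within a gate of TCRb+ CD4+ B220- CD44+ cells. All groups, controls included, carry the lpr mutation of the death receptor gene Fas, which makes this strain prone to lymphocyte accumulation and lupus-like disease, and no group with intact Fas was used here. The remaining 6 arrays hold CD62Llo PSGL1lo cells of the same gate and age, and naive CD62Lhi CD44lo cells of female MRL/Faslpr mice aged 6 to 8 weeks. They enter the estimate of the spread and are given below as levels only. Titles call the 3 arrays of a population technical replicates and the design text describes 3 independent sorts. The p-values therefore measure only the spread between these samples, and how many mice went into a sort is not given in the sources used here.

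CD62L binds glycoprotein ligands on the high endothelial venules of lymph nodes and slows passing lymphocytes so that they can enter. T cells shed it after activation, so that its loss is used to tell effector memory cells from naive and central memory cells. PSGL1 is the ligand of P-selectin and serves entry into inflamed tissue. In lupus-prone mice, spleens also hold CD4 T cells that have lost PSGL1 and help B cells outside the follicle.

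Groups were taken from the titles, whose populations are also those of the design text. The description of the samples titled CD62Llo PSGL1hi instead reads CD62Lhi PSGL1lo, so that it contradicts both gates. RNA of gate genes was therefore compared with the titles first. Selplg, which encodes PSGL1, had ratios of 0.977, 0.906 and 1.09 on the 3 arrays of CD62Llo PSGL1hi cells and 0.950, 1.07 and 1.11 on those of CD62Lhi PSGL1hi cells. In the CD62Llo PSGL1lo arrays it lay at 0.118, 0.127 and 0.153, below both PSGL1hi populations. The CD62L part of the titles was not checked here, and rests on the titles and the design text. Cd44 had ratios of 1.16, 1.12 and 1.03 against 0.972, 0.865 and 0.772 and was not called (0.34 ± 0.12, adjusted p = 0.211; 0.0436 after quantile normalization). Cd4, for the coreceptor that defines these cells, was higher, at 1.13, 1.19 and 1.17 against 0.703, 0.868 and 0.752 without overlap (0.59 ± 0.10, adjusted p = 0.00223; 0.0806 with the most variable probe set). It was the called one of 4 gate genes tested. Cd247, for the CD3 zeta chain, was the called one of 4 genes of the T cell receptor complex, with ratios of 1.28, 1.33 and 1.16 against 0.947, 0.958 and 0.786 (0.49 ± 0.11, adjusted p = 0.028). The adjusted p of Cd247 was 0.0684 with only the 6 arrays fitted, 0.112 without CD62Llo PSGL1hi replicate 1, 0.149 without CD62Llo PSGL1hi replicate 2 and 0.139 without CD62Lhi PSGL1hi replicate 3. Over all genes 0.742% were called higher. Cd3e (0.08 ± 0.09), Cd3d (0.04 ± 0.13) and Cd3g (0.22 ± 0.12) were not called, and neither was the leukocyte antigen gene Ptprc (0.03 ± 0.10). Fas had overlapping ratios of 0.903, 1.22 and 0.875 and 0.995, 1.06 and 0.816 (0.06 ± 0.14, adjusted p = 0.959).

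Each value is a linear ratio, the signal of a probe set over that probe set's median on 12 arrays, and is listed here in the order of replicates 1, 2 and 3. Differences are on the log2 scale, CD62Llo minus CD62Lhi, ± SE with n = 3 arrays per population. A ratio says nothing about brightness, so that levels of different genes cannot be compared and signal over background is unknown. A gene was called at an adjusted p under 0.05 in limma. The largest changes were named only among called genes whose groups of arrays do not overlap. A lack of overlap is therefore no further evidence for them. Of the 18193 genes 394 were called (2.17%), 135 of them higher in CD62Llo PSGL1hi cells (0.742%) and 259 lower (1.42%). The median difference of all genes was -0.01. Of the called genes 199 were called under each of 13 alternative settings as well, 55 higher and 144 lower. Without CD62Llo PSGL1hi replicate 1 or 2 the count of higher genes dropped to 84 and 87. Of the 259 lower genes 93 belonged to the 7 lists of cell division genes, and 147 to none of the 43 lists examined. The 7 lists are not complete, since the mitotic genes Sgo1 (-1.21), Sgo2a (-1.09) and Kif18b (-1.27) were called lower outside them. Among the 135 higher genes 102 were in no list. Values are those of 1 probe set per gene. Of 214 called genes with several probe sets, 93 had another called the same way, and 121 had none. The latter include, among the genes named here, Cd4, Cd247, Cdc45, Pole2, Uhrf1, E2f8, Brca1, Esco2, Ttk, Cenpf, Cenpp, Spc25, Tpx2, Nusap1, Anln, Cep55, Chst2, Ptger4, Fasl, Tnfsf13b, Lif, Klrc1, Pdzrn3, Bach2, Actn1, Plxdc1, Dio2, Alox12, Ddc, Anxa1, Anxa2, Epas1, Metrnl and Fdps. In these bulk samples, fewer cells of a type and less RNA per cell cannot be told apart.

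**Figure D1:**
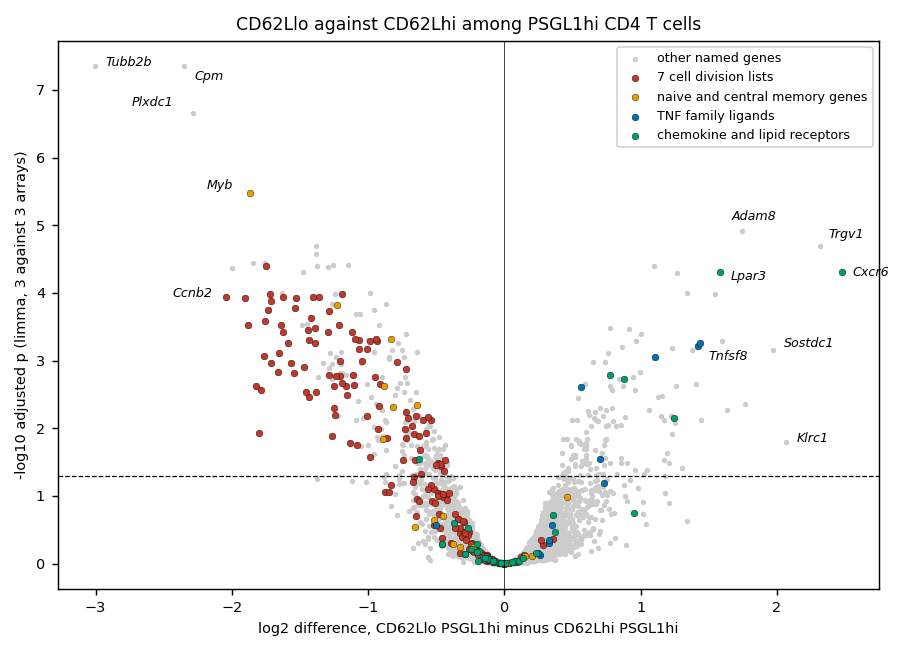
Each point is 1 of 18193 genes, with its log2 difference (CD62Llo PSGL1hi minus CD62Lhi PSGL1hi, 3 arrays each) on the x axis and -log10 of limma's adjusted p on the y axis; the dashed line marks 0.05. Cell division genes (red) lie on the left, with 93 below the threshold p and none of them higher, while 5 TNF family ligands (blue) and 5 chemokine and lipid receptors (green) were called higher.

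Genes of mitosis are driven late in the cell cycle from short promoters that often carry CCAAT boxes, bound by the factor NF-Y, and a CHR element with the core TTTGAA, bound by the DREAM and MuvB-MYB complexes. Both motifs were searched on both strands in the 250 bases before the start of each gene, in RefSeq promoters on GRCm38.p6. Of 14452 tested genes with such a sequence 35.7% held CCAAT, 11.9% TTTGAA and 4.38% both. Among 77 of the 93 called cell division genes the shares were 66.2%, 32.5% and 28.6%. Those of 140 other genes called lower were 40%, 13.6% and 3.57%, and those of 106 genes called higher 37.7%, 7.55% and 0.943%. Genes called lower outside the lists are not free of cell division genes, as Sgo1 and Kif18b show. The 4 promoters below belong to called genes of the list for mitotic cyclins, kinases and the anaphase-promoting complex. Genes on 1 chromosome were left out of this choice. Of the others in that list that held both motifs, these 4 had the largest falls. Of 20 called genes of that list with a promoter sequence, 80% held CCAAT, 35% TTTGAA and 35% both. Cell division genes that were not called were not counted as a set. Whether the motifs go with the change or with cell division genes in general was therefore not tested. The promoters are shown because these letters recur in the group that changed most. They read 5′ to 3′ towards the gene, and capitals mark every match, a match on the opposite strand showing as the reverse complement of its motif.
Ccnb2: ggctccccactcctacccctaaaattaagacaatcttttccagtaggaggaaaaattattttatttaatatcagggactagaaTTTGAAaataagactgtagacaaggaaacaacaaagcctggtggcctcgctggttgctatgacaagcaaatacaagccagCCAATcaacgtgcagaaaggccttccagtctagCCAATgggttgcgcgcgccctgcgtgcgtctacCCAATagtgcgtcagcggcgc
Ube2c: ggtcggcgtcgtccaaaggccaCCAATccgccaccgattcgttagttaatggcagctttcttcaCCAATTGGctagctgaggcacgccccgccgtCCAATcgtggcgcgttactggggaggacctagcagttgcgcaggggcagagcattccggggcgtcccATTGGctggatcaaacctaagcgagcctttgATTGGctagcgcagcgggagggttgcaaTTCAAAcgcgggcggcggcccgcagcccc
Espl1: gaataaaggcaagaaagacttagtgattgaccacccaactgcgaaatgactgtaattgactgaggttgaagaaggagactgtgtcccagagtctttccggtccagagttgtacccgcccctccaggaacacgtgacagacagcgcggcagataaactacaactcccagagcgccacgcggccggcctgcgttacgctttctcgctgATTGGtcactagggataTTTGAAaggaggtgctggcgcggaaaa
Cdc20: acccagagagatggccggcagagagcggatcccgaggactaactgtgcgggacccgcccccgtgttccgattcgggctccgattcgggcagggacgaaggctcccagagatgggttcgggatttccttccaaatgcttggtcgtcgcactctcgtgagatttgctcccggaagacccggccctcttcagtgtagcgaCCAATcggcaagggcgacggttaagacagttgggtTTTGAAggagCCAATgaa
The Ccnb2 stretch is chr9:70421555-70421804 on the minus strand and holds 3 CCAAT matches, at 87, 54 and 21 bases before the start, and 1 TTTGAA match at 167. That of Ube2c is chr2:164769679-164769928 on the plus strand, with 6 CCAAT matches, of which a forward and a reverse one overlap, and 1 TTTGAA match on the reverse strand 29 bases before the start. Espl1 is read at chr15:102296043-102296292 on the plus strand, with 1 match of each motif, 44 and 27 bases before the start. Cdc20 is read at chr4:118437344-118437593 on the minus strand, where CCAAT matches at 53 and 8 bases flank TTTGAA at 18. A match describes the letters and does not show that a factor binds there.

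Mitotic regulators were lower in CD62Llo PSGL1hi cells as a group. Of 31 genes for mitotic cyclins, kinases and the anaphase-promoting complex 24 were called lower and 0 higher, with a median difference of -1.13, and the groups of arrays did not overlap for 28 of them (over all genes, 8.5% were lower and 6.89% higher without overlap). Ccnb2, which encodes the cyclin B2 partner of the mitotic kinase CDK1, had ratios of 0.606, 0.721 and 0.991 in CD62Llo and 2.45, 2.83 and 4.36 in CD62Lhi cells. Each CD62Lhi array was thus above each CD62Llo array, and the level was 4.12-fold lower in CD62Llo cells (-2.04 ± 0.23, adjusted p = 0.000113). Ccna2, for the S and G2 phase cyclin A2, stood at 0.594, 0.676 and 0.973 against 2.07, 2.69 and 3.65 (-1.90 ± 0.22, adjusted p = 0.000117). The arrays of the populations did not overlap for either cyclin.

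Kinases of mitotic entry and of the spindle checkpoint followed. Plk1, for a kinase of mitotic entry and centrosome maturation, had ratios of 0.720, 0.853 and 0.997 and 1.6, 2.29 and 2.98 (-1.39 ± 0.18, adjusted p = 0.000326). Aurkb, the kinase of the chromosomal passenger complex, stood at 0.620, 0.719 and 0.992 and 1.56, 2.76 and 4.54 (-1.82 ± 0.30, adjusted p = 0.0024), and Birc5, which encodes its partner survivin, at 0.557, 0.644 and 0.942 and 1.67, 2.34 and 3.54 (-1.78 ± 0.30, adjusted p = 0.0027). In each of these the lowest CD62Lhi array was above the highest CD62Llo array. The checkpoint kinase genes Bub1 (-1.76 ± 0.25), Ttk (-1.54 ± 0.24) and Bub1b (-1.21 ± 0.19) fell by similar amounts. Espl1, for the protease separase that cuts cohesin, had ratios of 0.670, 0.670 and 0.917 against 1.58, 2.11 and 3.37 (-1.59 ± 0.22, adjusted p = 0.000555). Cdc20, the activator of the anaphase-promoting complex, stood at 0.715, 0.730 and 0.818 against 1.42, 1.89 and 2.86 (-1.39 ± 0.19, adjusted p = 0.000555). Ube2c, the ubiquitin-conjugating enzyme of that complex, spread most among CD62Lhi arrays, at 1.38, 2.6 and 5.02 against 0.642, 0.670 and 0.993 in CD62Llo cells (-1.80 ± 0.36, adjusted p = 0.0119). Under other settings the adjusted p of Ube2c was 0.0631 with a robust prior, 0.0624 without CD62Llo PSGL1hi replicate 1 and 0.0618 without CD62Llo PSGL1hi replicate 2.

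Of 47 genes for kinetochore and spindle proteins 34 were lower and 0 higher, with a median of -1.11. Depdc1a, a mitotic regulator, had ratios of 0.974, 1.1 and 1.33 against 3.09, 4.15 and 3.96 (-1.72 ± 0.19, adjusted p = 0.000104). Kif11, the motor that pushes spindle poles apart, stood at 0.994, 0.756 and 1.18 against 2.04, 3.1 and 3.44 (-1.54 ± 0.18, adjusted p = 0.000166), and Hmmr, a spindle assembly factor, at 0.652, 0.718 and 0.995 against 1.76, 2.56 and 3.02 (-1.62 ± 0.18, adjusted p = 0.000113). None of these overlapped between populations. The kinetochore genes Cenpf (-1.71 ± 0.26), Cenpe (-1.44 ± 0.19), Cenpp (-1.36 ± 0.15) and Spc25 (-1.28 ± 0.15), the spindle genes Tpx2 (-1.64 ± 0.21), Aspm (-1.66 ± 0.24) and Nusap1 (-1.66 ± 0.26), and the cytokinesis genes Anln (-1.53 ± 0.17), Ect2 (-1.19 ± 0.13) and Cep55 (-1.62 ± 0.21) were all called lower. Of 15 tubulin genes 1 was called lower, Tubb2b, which is described below. In 12 of the 15 the difference was below 0, with a median of -0.16. Without overlap 5 were lower and 1 higher (over all genes, 8.5% and 6.89%).

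**Figure D2:**
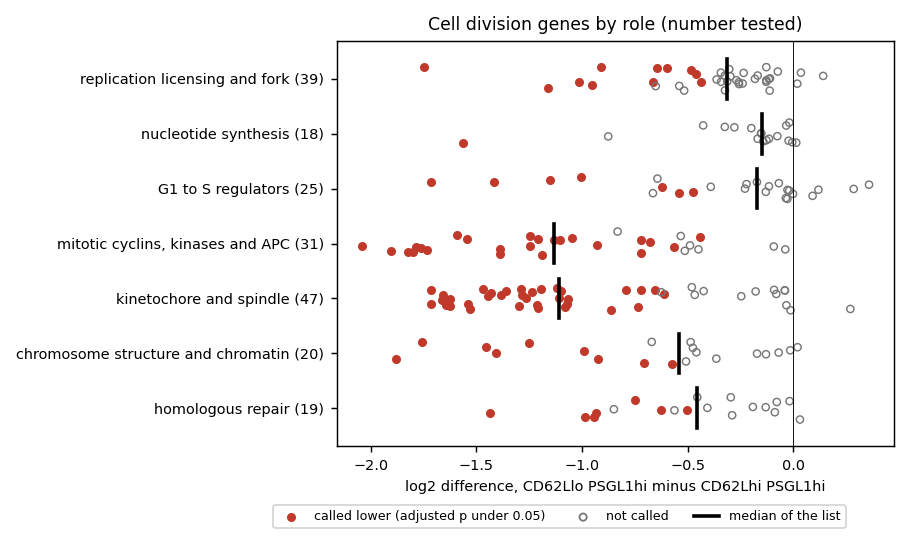
Each point is a gene of 1 of the 7 cell division lists (rows, with the number tested), placed by its log2 difference, CD62Llo minus CD62Lhi, with red for genes called lower, open circles for genes not called and a bar at the list's median. The mitotic and kinetochore lists have medians of -1.13 and -1.11, while replication (-0.31), nucleotide synthesis (-0.15) and G1 to S genes (-0.17) lie nearer to 0.

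Some DNA replication genes were lower too. Of 39 genes for origin licensing and the replication fork 11 were lower and 0 higher, with a median of -0.31. Cdc6, which loads the MCM helicase onto origins, stood out, with ratios of 0.900, 0.824 and 1.15 against 3.11, 2.67 and 3.9 (-1.75 ± 0.17, adjusted p = 3.96e-05, 3.36-fold lower). Cdc45, a helicase subunit, had ratios of 0.980, 0.856 and 1.02 against 1.67, 1.57 and 2.68 (-1.01 ± 0.19, adjusted p = 0.00651). Both were separated between populations. Uhrf1, which guides maintenance DNA methylation (-1.16 ± 0.19), and the polymerase epsilon genes Pole (-0.91 ± 0.15) and Pole2 (-0.95 ± 0.15) were lower too. Mcm7 (-0.60 ± 0.11) was the called MCM gene, and Mcm5 was not called (-0.52 ± 0.14, adjusted p = 0.0782; 0.00805 with the most variable probe set and 0.00648 without CD62Lhi PSGL1hi replicate 1). Pola1, for the catalytic subunit of polymerase alpha, was not called either (-0.54 ± 0.14, adjusted p = 0.0686; 0.0439 after quantile normalization, 0.0478 with only the 6 arrays fitted, 0.0157 with a replicate block and 0.0483 with array weights). Without CD62Lhi PSGL1hi replicate 3, CD62Llo PSGL1hi replicate 1 or CD62Llo PSGL1hi replicate 2 the count of lower replication genes was 7.

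Nucleotide synthesis had 1 of 18 genes lower. Rrm2, the regulated subunit of ribonucleotide reductase, had ratios of 0.884, 0.826 and 1.1 against 1.85, 2.69 and 4.16 (-1.56 ± 0.23, adjusted p = 0.00108). Tk1, for thymidine kinase, had ratios of 1.12, 1.07 and 1.38 against 1.69, 1.89 and 3.18 and missed the threshold (-0.88 ± 0.24, adjusted p = 0.0886; 0.00107 with a replicate block and 0.0493 without CD62Lhi PSGL1hi replicate 1). Of 25 G1 to S regulators 7 were lower and 0 higher (median -0.17). The late E2F repressor genes E2f7 (0.856, 0.993 and 1.26 against 2.48, 3.17 and 4.77; -1.71 ± 0.20, adjusted p = 0.000133) and E2f8 (-1.42 ± 0.17, adjusted p = 0.000238) were the most changed, before Ccne2, for cyclin E2 (-1.15 ± 0.20, adjusted p = 0.00325), and the activator E2f2 (2.01-fold lower, adjusted p = 0.000673). Cdkn2c, which encodes the CDK4 and CDK6 inhibitor p18, was lower as well (-0.54 ± 0.10, adjusted p = 0.00748). In contrast Cdkn2b, for the related inhibitor p15, was higher in CD62Llo cells, at 1.59, 1.86 and 1.43 against 1.05, 0.737 and 0.768 (0.94 ± 0.15, adjusted p = 0.00172). Plk3, a stress-responsive polo-like kinase, was higher too (0.65 ± 0.10, adjusted p = 0.00105). Neither Cdkn2b nor Plk3 is in the 7 cell division lists, so that the counts of 0 higher leave them out.

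Among 20 genes for chromosome structure and chromatin 9 were lower (median -0.54), and among 19 for homologous repair 7 were lower (median -0.45), with 0 higher in both. Mki67, for the proliferation antigen Ki-67, had ratios of 1.03, 1.03 and 1.38 against 2.53, 3.02 and 3.62 (-1.41 ± 0.16, adjusted p = 0.000113). The cohesion genes Cdca5, for sororin (0.704, 0.828 and 1.08 against 2.56, 2.77 and 4.43; -1.88 ± 0.24, adjusted p = 0.000302), and Esco2, for the acetyltransferase of cohesin (-1.76 ± 0.22, adjusted p = 0.000259), fell further. The populations did not overlap in any of these. Condensin genes Ncapg (-1.45 ± 0.24) and Ncaph (-1.25 ± 0.22) and the repair genes Rad51ap1 (-1.44 ± 0.19), Brca1 (-0.99 ± 0.13), Rad54l (-0.94 ± 0.13) and Brip1 (-0.93 ± 0.13) were also called lower. Without CD62Lhi PSGL1hi replicate 3 or CD62Llo PSGL1hi replicate 2 the count of lower repair genes was 4.

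Over the 7 lists together, 93 of 199 genes were lower, 0 were higher and 188 had a difference below 0, with a median of -0.51. At an unadjusted p under 0.05 in limma, 132 were lower and 2 higher. The share of all genes under that unadjusted p was not counted, so that such counts have no background, here or for other lists. The count of called genes was 72 without CD62Llo PSGL1hi replicate 2, 76 without CD62Llo PSGL1hi replicate 1 and 77 without CD62Lhi PSGL1hi replicate 3. Replicate 3 was the highest CD62Lhi array for 80 of the 93 called genes, and also the highest CD62Llo array for 67. Averaged over the lists, the log2 ratio was 0.422, 0.538 and 0.807 on the CD62Lhi arrays and -0.108, -0.11 and -0.004 on the CD62Llo arrays. The levels in the other populations place the difference. For 89 of the 93 genes the mean ratio was highest in CD62Lhi PSGL1hi cells of all 4 populations (95.7%). The share was 74.7% of the 166 other genes called lower and 36.8% of all genes with a negative difference. Those 166 also hold cell division genes that the lists lack, such as Sgo1 and Kif18b. A call of lower in CD62Llo cells itself favours CD62Lhi cells as the highest population. Over the 93 genes the median of the mean ratios was 2.15 in CD62Lhi PSGL1hi cells. It was 0.92 in CD62Llo PSGL1hi, 0.775 in CD62Llo PSGL1lo and 1.03 in naive cells. Mki67, for example, had mean ratios of 0.690 ± 0.142 (SD, n = 3) in CD62Llo PSGL1lo and 0.924 ± 0.0431 in naive cells, both below the CD62Llo PSGL1hi ratios of 1.03, 1.03 and 1.38.

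**Figure D3:**
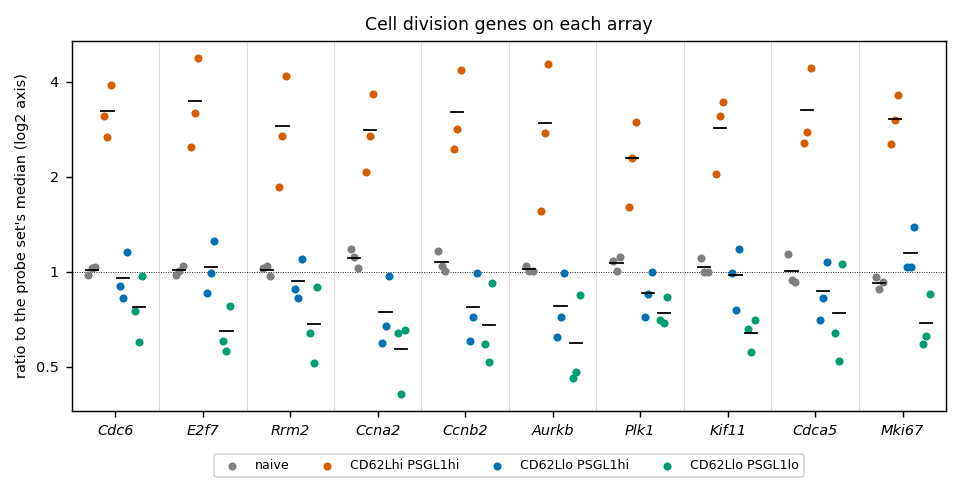
Ratios of 10 cell division genes (x axis) on each of the 12 arrays, on a log2 axis; points are arrays, coloured by population, and bars mark the mean of 3 arrays. CD62Lhi PSGL1hi arrays (orange) lie above the CD62Llo PSGL1hi arrays (blue) in all 10 genes, as with Ccnb2 at 2.45, 2.83 and 4.36 against 0.606, 0.721 and 0.991.

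Receptors for homing and migration divided. Of 33 chemokine, sphingosine, lysophosphatidate and prostaglandin receptors 5 were higher, 1 was lower and 27 were not called (median -0.04). Cxcr6, the receptor of the membrane-bound chemokine CXCL16 on tissue effector T cells, rose most of the genes in this list. It had ratios of 5.94, 3.6 and 5.64 in CD62Llo and 1.12, 0.695 and 0.904 in CD62Lhi cells, 5.56-fold higher (2.48 ± 0.25, adjusted p = 4.93e-05). Its lowest CD62Llo array was above the highest CD62Lhi array, and its mean ratio was 0.991 ± 0.323 (SD, n = 3) in CD62Llo PSGL1lo and 0.131 ± 0.0277 in naive cells. Ccr2, for the receptor of monocyte-attracting chemokines also carried by effector memory cells, stood at 4.07, 4.8 and 5.22 against 1.71, 2.61 and 1.71 (1.25 ± 0.23, adjusted p = 0.00704). Both Cxcr6 and Ccr2 were highest in CD62Llo PSGL1hi cells of the 4 populations.

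The lysophosphatidate receptor genes Lpar3 (1.58, 2.03 and 1.32 against 0.678, 0.459 and 0.511; 1.58 ± 0.16, adjusted p = 4.98e-05) and Lpar6 (0.78 ± 0.12, adjusted p = 0.00163) and the prostaglandin E2 receptor gene Ptger4 (0.88 ± 0.14, adjusted p = 0.00186) rose too. For Lpar3 the level was higher still in CD62Llo PSGL1lo cells, at 2.9 ± 0.327. Ccr4, for a receptor of skin-homing and type 2 helper cells, was lower, with ratios of 1.38, 1.01 and 1.25 against 1.78, 1.82 and 1.99 (-0.63 ± 0.14, adjusted p = 0.0283). Other settings gave Ccr4 an adjusted p of 0.176 without CD62Llo PSGL1hi replicate 2, 0.0683 without CD62Llo PSGL1hi replicate 3, 0.0537 without CD62Lhi PSGL1hi replicate 1, 0.0686 without CD62Lhi PSGL1hi replicate 2 and 0.114 without CD62Lhi PSGL1hi replicate 3. Cxcr3, the receptor of interferon-induced chemokines, had ratios of 1.81, 1.66 and 1.83 against 1.36, 1.43 and 1.34 and was not called (0.36 ± 0.12, adjusted p = 0.19; 0.0043 after quantile normalization). S1pr5, a sphingosine phosphate receptor, was at 1.56, 1.47 and 4.71 against 1, 0.996 and 1.49, with replicate 3 above the others in both populations (0.95 ± 0.31, adjusted p = 0.179; 0.0436 with a replicate block).

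Surface adhesion genes and proteases added single members. Of 23 integrin genes 0 were called at an adjusted p under 0.05 in limma, 7 had an unadjusted p under 0.05, and 8 were separated between the populations, 2 higher and 6 lower (over all genes, 6.89% were higher and 8.5% lower without overlap). Itgb1, for the beta 1 chain, had ratios of 1.31, 1.63 and 1.04 against 0.856, 0.957 and 0.660 (0.68 ± 0.17, adjusted p = 0.0572). For Itgb1 the adjusted p became 0.0468 after quantile normalization, 0.0386 after subtracting array medians, 0.0114 with a replicate block, 0.0385 with array weights, 0.0228 without CD62Llo PSGL1hi replicate 3 and 0.0444 without CD62Lhi PSGL1hi replicate 2. Adam8, a metalloprotease of activated leukocytes that can cleave adhesion molecules, stood at 4.47, 3.79 and 5.67 against 1.56, 1.17 and 1.4, 3.35-fold higher (1.74 ± 0.15, adjusted p = 1.22e-05). Its arrays did not overlap, and the other populations lay at 0.757 ± 0.0865 and 0.791 ± 0.0493. Cdh1, for E-cadherin, had ratios of 4.8, 2.82 and 2.68 against 1.14, 1.01 and 1.27 (1.54 ± 0.17, adjusted p = 0.000104). Of 17 ADAM, matrix metalloprotease and inhibitor genes those called besides Adam8 were Adamts6, higher (0.60 ± 0.13, adjusted p = 0.02; highest at 0.264 with the most variable probe set), and Mmp14, lower (-0.48 ± 0.10, adjusted p = 0.0203; highest at 0.987 with the most variable probe set). Among 25 genes that build selectin ligands 1 was higher, the sulfotransferase gene Chst2 (1.43, 1.27 and 1.72 against 0.808, 0.830 and 1.03; 0.73 ± 0.15, adjusted p = 0.0176). Over all genes the share called higher was 0.742%. Under other settings the adjusted p of Chst2 was 0.0559 without CD62Llo PSGL1hi replicate 1, 0.0976 without CD62Llo PSGL1hi replicate 3, 0.0736 without CD62Lhi PSGL1hi replicate 1 and 0.0716 without CD62Lhi PSGL1hi replicate 2.

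TNF family ligands were higher for 5 of 13 genes and lower for 0, with a median of 0.35 (8 and 1 at an unadjusted p under 0.05 in limma). Tnfsf11, which encodes RANKL, had ratios of 1.55, 1.43 and 1.23 against 0.772, 0.454 and 0.392 (1.43 ± 0.20, adjusted p = 0.000542). Tnfsf8, for CD30 ligand, stood at 1.24, 1.94 and 1.6 against 0.486, 0.760 and 0.541 (1.42 ± 0.20, adjusted p = 0.000598), and Tnfsf13b, for the B cell survival factor BAFF, at 1.29, 1.44 and 1.27 against 0.728, 0.551 and 0.597 (1.10 ± 0.16, adjusted p = 0.000875). In all 3 genes each CD62Llo array was above each CD62Lhi array, and the CD62Llo PSGL1lo mean was higher again, at 2.42 ± 0.383, 5.82 ± 1.02 and 3.43 ± 0.686 (SD, n = 3). For Tnfsf13b the 2 other probe sets lay at 0.12 and -0.03 and were not called. Tnf itself rose less, from 0.867, 0.849 and 0.879 to 1.23, 1.2 and 1.41 (0.56 ± 0.09, adjusted p = 0.00242).

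Fasl, the ligand of the receptor that is mutated in this strain, had ratios of 3.32, 2.4 and 3.04 against 1.81, 1.98 and 1.57 (0.70 ± 0.16, adjusted p = 0.028). Other settings gave Fasl an adjusted p of 0.112 with the most variable probe set, 0.148 without CD62Llo PSGL1hi replicate 1, 0.107 without CD62Llo PSGL1hi replicate 3, 0.0665 without CD62Lhi PSGL1hi replicate 1 and 0.132 without CD62Lhi PSGL1hi replicate 3. Unlike the 3 genes before it, Fasl was low in CD62Llo PSGL1lo cells, at 0.367 ± 0.0607. Lta, for lymphotoxin alpha, was separated between the populations at 1.34, 0.963 and 1.4 against 0.846, 0.548 and 0.851 and missed the threshold (0.73 ± 0.19, adjusted p = 0.065). For Lta the adjusted p was 0.0476 after subtracting array medians, 0.000647 with a replicate block, 0.0433 with array weights and 0.0337 without CD62Llo PSGL1hi replicate 2. Of the 21 TNF receptor genes 1 was called (4.76%, against 2.17% of all genes). It was Tnfrsf13c, which encodes the BAFF receptor and was lower (-0.43 ± 0.10, adjusted p = 0.0309). For Tnfrsf13c the adjusted p became 0.0596 with only the 6 arrays fitted, 0.0603 without CD62Llo PSGL1hi replicate 1, 0.102 without CD62Llo PSGL1hi replicate 2, 0.141 without CD62Llo PSGL1hi replicate 3, 0.0771 without CD62Lhi PSGL1hi replicate 1, 0.0591 without CD62Lhi PSGL1hi replicate 2 and 0.116 without CD62Lhi PSGL1hi replicate 3.

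Of 22 cytokine genes 1 was called higher and 1 lower (9.09%, against 2.17% of all genes). Il4, for the type 2 and B cell helper cytokine, had ratios of 1.18, 2.82 and 1.35 against 0.824, 0.711 and 0.641, with replicate 2 above the other CD62Llo arrays (1.19 ± 0.26, adjusted p = 0.0233). Under other settings the adjusted p of Il4 was 0.0662 with only the 6 arrays fitted, 0.0547 with a robust prior, 0.0722 without CD62Llo PSGL1hi replicate 2, 0.0712 without CD62Lhi PSGL1hi replicate 2 and 0.0957 without CD62Lhi PSGL1hi replicate 3. Lif, for leukemia inhibitory factor, was lower at 0.980, 0.885 and 1.02 against 1.58, 1.23 and 1.81 (-0.66 ± 0.13, adjusted p = 0.0079; 0.0542 without CD62Llo PSGL1hi replicate 2). Il21 missed the threshold (0.74 ± 0.20, adjusted p = 0.0859; 0.0247 with a replicate block). Of 16 chemokine genes 2 were higher, Ccl3 (3.48, 2.93 and 3.05 against 2.02, 1.88 and 1.75; 0.74 ± 0.14, adjusted p = 0.00939) and Ccl4 (0.75 ± 0.15, adjusted p = 0.0143), which both encode inflammatory chemokines. The adjusted p of Ccl3 was 0.0603 without CD62Llo PSGL1hi replicate 1, and that of Ccl4 was 0.0709 without CD62Llo PSGL1hi replicate 1, 0.07 without CD62Llo PSGL1hi replicate 3 and 0.0612 without CD62Lhi PSGL1hi replicate 3. Ccl5 was not called (0.51 ± 0.15, adjusted p = 0.114; 0.00469 after quantile normalization and 0.0343 with a replicate block). Of 29 cytokine receptor genes 2 were higher: Il18rap, an IL-18 receptor chain of type 1 effector cells (3.33, 2.48 and 3.3 against 1.49, 1.54 and 1.51; 0.99 ± 0.15, adjusted p = 0.00146), and Il12rb1, a chain of the IL-12 and IL-23 receptors (1.99, 1.72 and 1.73 against 1.01, 1.23 and 1.01; 0.74 ± 0.13, adjusted p = 0.00545). Both were separated between the populations.

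**Figure D4:**
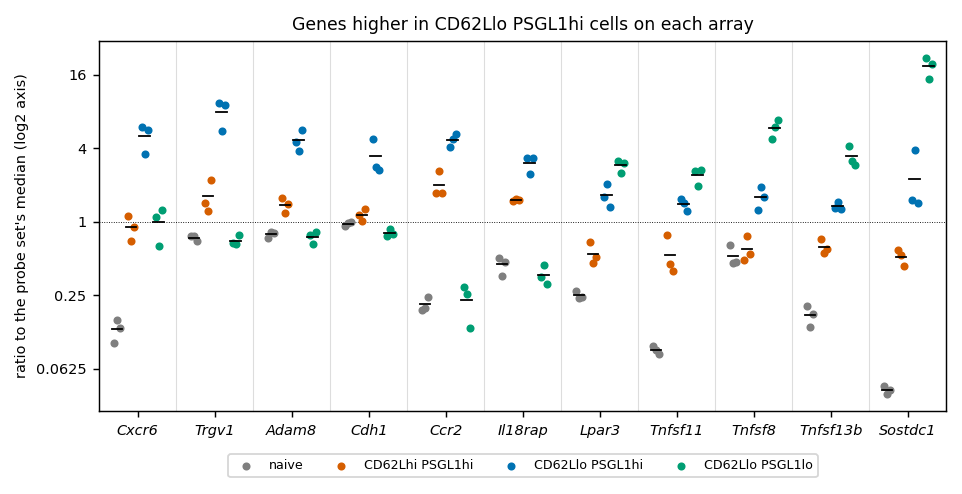
Ratios of 11 genes called higher in CD62Llo PSGL1hi cells (x axis) on each of the 12 arrays, on a log2 axis, with points for arrays and bars for the mean of 3 arrays. Cxcr6, Trgv1, Adam8, Cdh1, Ccr2 and Il18rap are highest in CD62Llo PSGL1hi cells (blue), whereas Lpar3, Tnfsf11, Tnfsf8, Tnfsf13b and Sostdc1 are higher still in CD62Llo PSGL1lo cells (green).

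A T cell receptor gamma gene and 2 of 22 receptor genes of natural killer (NK) cells rose. Trgv1, a variable segment of the gamma chain locus, had ratios of 9.36, 5.51 and 9.1 against 1.43, 1.22 and 2.18, 4.97-fold higher (2.31 ± 0.20, adjusted p = 1.99e-05). Klrd1, for CD94, stood at 4.21, 1.89 and 4.6 against 1.31, 0.662 and 1.41 (1.63 ± 0.29, adjusted p = 0.00531; 0.05 with only the 6 arrays fitted). Klrc1, for its partner NKG2A, was at 12.9, 4.51 and 16.0 against 2.17, 1.23 and 4.81 (2.06 ± 0.43, adjusted p = 0.016). Replicate 2 was the lowest array of both populations for Trgv1, Klrd1 and Klrc1, and for Klrc1 the populations overlapped. The adjusted p of Klrc1 was 0.101 with only the 6 arrays fitted, 0.11 with a robust prior, 0.0886 without CD62Llo PSGL1hi replicate 1, 0.0896 without CD62Llo PSGL1hi replicate 3, 0.0524 without CD62Lhi PSGL1hi replicate 1 and 0.0759 without CD62Lhi PSGL1hi replicate 2, and a second probe set of Klrc1 was at 0.28 and not called. Crtam, an adhesion receptor of cytotoxic CD4 cells, went the other way, with ratios of 2.38, 1.53 and 2.45 against 4.34, 4.44 and 3.54 (-0.98 ± 0.17, adjusted p = 0.00346). Slamf7, a signalling receptor of NK and cytotoxic cells, was lower too, at 2.08, 1.66 and 2.65 against 5.36, 5.53 and 5.39 (-1.38 ± 0.14, adjusted p = 3.96e-05).

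Of the 22 NK receptor genes 2 were higher, 1 was lower and 19 were not called, and of 18 cytotoxic granule genes 0 were called by limma, with 5 at an unadjusted p under 0.05. Gzmb, for granzyme B, had overlapping ratios of 2.5, 3.5 and 2.73 and 2.08, 4.02 and 1.9 (0.20 ± 0.28, adjusted p = 0.91). The NK cell marker Ncr1 was at 0.936, 0.857 and 0.991 against 1.11, 1.08 and 1.21 (-0.29 ± 0.10, adjusted p = 0.263). Of 7 tested genes of gamma-delta or innate-like T cells, Trgv1 was the called one. In that list 5 genes had a difference below 0, and the median was -0.08. Averaged over the list, Trgv1 included, the log2 ratio ranged from 0.261 to 0.513 on CD62Llo and from 0.054 to 0.111 on CD62Lhi arrays. For NK receptors it ranged from 0.224 to 0.518 and from 0.11 to 0.326, and for the 2 CD8 T cell markers from -0.154 to -0.01 and from -0.0916 to 0.0877. Ratios do not show whether a marker is expressed, and the part of other cell types in the rise of Trgv1 and the NK receptors was not tested.

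Transcription factors of effector lineages were higher for 2 of 30 genes (over all genes, 0.742%), and 12 were higher and 2 lower at an unadjusted p under 0.05 in limma. The count of 2 became 6 after quantile normalization, 4 after subtracting array medians, with a replicate block or without CD62Lhi PSGL1hi replicate 1, 3 with array weights, with the most variable probe set, with only the 6 arrays fitted or without CD62Lhi PSGL1hi replicate 2 or CD62Llo PSGL1hi replicate 3, and 1 without CD62Llo PSGL1hi replicate 2. Id2, an inhibitor of E proteins that supports effector and type 1 cells, had ratios of 2.22, 2.21 and 2.79 against 0.751, 1.18 and 0.957 (1.34 ± 0.15, adjusted p = 9.85e-05). Gata3, which directs type 2 helper cells, stood at 1.2, 1.42 and 1.19 against 0.804, 0.813 and 0.750 (0.68 ± 0.13, adjusted p = 0.0079; 0.0568 without CD62Llo PSGL1hi replicate 2). Both were separated between the populations. Bhlhe40, a factor needed for cytokine production, missed the threshold (0.69 ± 0.18, adjusted p = 0.0704). Other settings gave Bhlhe40 an adjusted p of 0.0124 after quantile normalization, 0.0422 after subtracting array medians, 0.02 with only the 6 arrays fitted, 0.0039 with a replicate block, 0.0415 with array weights and 0.0486 without CD62Lhi PSGL1hi replicate 1. Eomes was separated between the populations and not called (-0.19 ± 0.15, adjusted p = 0.781). Havcr2, the inhibitory receptor TIM-3 of type 1 effector cells, was higher at 4.57, 3.15 and 3.38 against 2.31, 2.67 and 1.77 (0.72 ± 0.16, adjusted p = 0.0232; 0.0908 with only the 6 arrays fitted, 0.129 without CD62Llo PSGL1hi replicate 1 and 0.113 without CD62Lhi PSGL1hi replicate 3). Nrp1, for the semaphorin receptor neuropilin 1 that also marks thymic regulatory T cells, was at 1.54, 1.46 and 1.3 against 0.938, 0.799 and 0.848 (0.74 ± 0.11, adjusted p = 0.00105), as the called one of 18 regulatory T cell genes. Early response genes of the T cell receptor were higher for 3 of 35, among them the feedback inhibitors Spry1 (0.91 ± 0.12, adjusted p = 0.000343) and Cish (0.66 ± 0.12, adjusted p = 0.00722). Nfkbid, for a nuclear regulator of NF-kappaB, is the third (0.45 ± 0.11, adjusted p = 0.0421), and its adjusted p ranged up to 0.202, without CD62Llo PSGL1hi replicate 2.

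Genes of B cell help were higher for 3 of 22 and lower for 1 (18.2% called, against 2.17% of all genes). Averaged over the list, the log2 ratio was 0.101, 0.451 and -0.0285 on the CD62Llo arrays. It was -0.024, -0.0479 and -0.248 on the CD62Lhi arrays, so that the populations overlapped. Sostdc1, a secreted antagonist of BMP and WNT signalling that follicular helper cells make, had ratios of 1.5, 3.84 and 1.42 against 0.585, 0.536 and 0.435 (1.97 ± 0.28, adjusted p = 0.000706), and Slamf1, an adhesion receptor between T and B cells, stood at 1.55, 1.56 and 1.42 against 0.879, 0.954 and 0.817 (0.78 ± 0.10, adjusted p = 0.000326). Il4 is the third. Pou2af1, for the coactivator OCA-B, was lower at 0.413, 0.937 and 0.438 against 1.14, 1.25 and 1.06 (-1.05 ± 0.22, adjusted p = 0.0182). For Pou2af1 the adjusted p became 0.0957 with only the 6 arrays fitted, 0.11 without CD62Llo PSGL1hi replicate 1, 0.1 without CD62Llo PSGL1hi replicate 3 and 0.0741 without CD62Lhi PSGL1hi replicate 2. Ascl2, which starts follicular helper differentiation, was not called, and replicate 2 stood above the rest of its population at 1.33, 4.26 and 1.07 against 0.926, 0.824 and 0.646 (1.21 ± 0.36, adjusted p = 0.129; 0.032 without CD62Llo PSGL1hi replicate 3).

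That array recurred. Of the 135 genes called higher, 68 had their highest mean of the 4 populations in CD62Llo PSGL1hi cells (50.4%), 55 in CD62Llo PSGL1lo cells (40.7%) and 12 in naive cells (8.89%). Among all genes with a positive difference the shares were 31.6%, 28.6% and 39.4%, and the call itself favours a high CD62Llo PSGL1hi mean. Of the 55, replicate 2 was the highest CD62Llo PSGL1hi array for 44 (80%), and of the 68 for 18 (26.5%). Without it, 25 of the 55 and 51 of the 68 kept their call. Leaving out another array of the 2 populations instead kept 30 to 46 of the 55 and 42 to 55 of the 68. The Selplg ratio of CD62Llo PSGL1hi cells was lowest on replicate 2, at 0.906. Vdr, the vitamin D receptor (1.18, 3 and 1.66 against 0.760, 0.819 and 0.473; 1.44 ± 0.27, adjusted p = 0.00752), and Pdzrn3, a ubiquitin ligase (1.33, 2.71 and 1.22 against 0.778, 0.472 and 0.307; 1.76 ± 0.31, adjusted p = 0.00431), had this pattern, with mean ratios of 8.28 ± 1.11 and 7.02 ± 1.97 in CD62Llo PSGL1lo cells. Whether PSGL1lo cells in this sort contribute to these differences was not tested. Both kept their call without that array, with an adjusted p of 0.0287 for Vdr and 0.0215 for Pdzrn3. So did Sostdc1, Tnfsf11, Shtn1 (1.59 ± 0.22, adjusted p = 0.000518) and Chn2 (1.26 ± 0.21, adjusted p = 0.0024), which are also highest in CD62Llo PSGL1lo cells.

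Genes of naive and central memory T cells were lower for 7 of 23 and higher for 0 (median -0.38; 10 and 1 at an unadjusted p under 0.05 in limma). Myb, the transcription factor that keeps stem-like memory T cells, had ratios of 0.853, 0.575 and 0.673 against 2.54, 2.82 and 2.24, 3.65-fold lower (-1.87 ± 0.14, adjusted p = 3.29e-06). Txk, a TEC family kinase of T cells, stood at 0.692, 0.667 and 0.598 against 1.31, 1.98 and 1.36 (-1.23 ± 0.14, adjusted p = 0.000148). Lef1, a WNT pathway factor of naive and memory cells, was at 0.631, 0.588 and 0.554 against 0.801, 1.18 and 1.19 (-0.82 ± 0.15, adjusted p = 0.00481), and Bach2, a repressor of effector differentiation, at 0.739, 0.798 and 0.731 against 1.08, 1.21 and 1.24 (-0.64 ± 0.11, adjusted p = 0.00447). None of the 4 overlapped between the populations.

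Their levels elsewhere differ in kind. In naive cells Lef1 had a mean ratio of 4.79 ± 0.205 (SD, n = 3), Bach2 of 4.08 ± 0.536 and Txk of 3.95 ± 0.186, above CD62Lhi PSGL1hi cells in each case. Myb was at 1.24 ± 0.117 in naive cells, below the CD62Lhi PSGL1hi arrays. Sox4, a transcription factor (-0.89 ± 0.15, adjusted p = 0.00234), and Nsg2, for a neuronal vesicle protein (-0.83 ± 0.11, adjusted p = 0.000483), were also lower. The highest population mean was in naive cells for Sox4 and in CD62Llo PSGL1lo cells for Nsg2. The size of the fall of Sox4 depends on the probe set: 7 others ranged from -3.22 to 0.14, with 3 called lower. Actn1, for alpha-actinin, was lower with less certainty (-0.89 ± 0.18, adjusted p = 0.0142), since its adjusted p was 0.0717 without CD62Llo PSGL1hi replicate 2, 0.0744 without CD62Llo PSGL1hi replicate 3, 0.058 without CD62Lhi PSGL1hi replicate 1 and 0.0682 without CD62Lhi PSGL1hi replicate 3.

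On the probe sets used, the 3 largest falls lay outside the cell division lists. Tubb2b, a beta-tubulin best known from neurons, had ratios of 0.333, 0.366 and 0.274 in CD62Llo and 3.15, 2.46 and 2.23 in CD62Lhi cells, 8.02-fold lower (-3.00 ± 0.16, adjusted p = 4.37e-08). Its CD62Lhi arrays were all above 2 and its CD62Llo arrays all below 0.4, and it had 1 probe set. Cpm, for the membrane protease carboxypeptidase M, stood at 0.565, 0.696 and 0.657 against 2.74, 3.41 and 3.68 (-2.35 ± 0.12, adjusted p = 4.37e-08), and a second probe set fell by 2.45. Plxdc1, a transmembrane protein first found on tumour endothelium, was at 1.36, 1.32 and 1.14 against 6.73, 6.85 and 5.15 (-2.28 ± 0.14, adjusted p = 2.22e-07), while its second probe set, at -0.37, was not called. These CD62Lhi levels also exceeded those of the other populations. Cpm had a mean ratio of 1.01 ± 0.0336 in CD62Llo PSGL1lo and 0.932 ± 0.0976 in naive cells.

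Further genes with this profile were Tsc22d1, a transcription factor gene of the TSC22 family (1.17, 1.02 and 0.984 against 3.95, 3.48 and 3.91; -1.84 ± 0.17, adjusted p = 3.6e-05), Rps6ka5, for the histone kinase MSK1 (-1.39 ± 0.12, adjusted p = 1.99e-05), Unc5b, a netrin receptor (-1.26 ± 0.12, adjusted p = 3.88e-05), Dio2, for the deiodinase that activates thyroid hormone (-1.30 ± 0.13, adjusted p = 4.14e-05), and Alox12, an arachidonate lipoxygenase (-1.48 ± 0.15, adjusted p = 4.87e-05). The second probe set of Alox12 was at -0.07 and the other 2 of Dio2 at -0.24 and -0.14, none of them called. Basp1, a membrane-bound signalling protein, had ratios of 0.730, 0.389 and 0.398 against 2, 1.7 and 2.12 (3.99-fold lower, adjusted p = 4.35e-05). The TEC kinase gene Tec was lower alongside Txk (-1.38 ± 0.13, adjusted p = 2.62e-05). Ddc, for aromatic amino acid decarboxylase, stood at 0.791, 0.776 and 0.612 against 2.32, 2.44 and 2.55 (-1.76 ± 0.16, adjusted p = 3.58e-05), with no call on a second probe set at -0.06. In all of these the populations did not overlap, which was a condition for naming large changes. Anxa2, for annexin A2, was lower (1.24, 1.09 and 1.12 against 2.26, 2.22 and 1.76; -0.85 ± 0.12, adjusted p = 0.00095), and Anxa1, for the glucocorticoid-induced annexin A1, was higher (2.13, 1.35 and 1.76 against 1.01, 0.626 and 0.621; 1.23 ± 0.25, adjusted p = 0.0121). The adjusted p of Anxa1 was 0.0748 without CD62Llo PSGL1hi replicate 1, 0.0599 without CD62Lhi PSGL1hi replicate 2 and 0.061 without CD62Lhi PSGL1hi replicate 3.

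**Figure D5:**
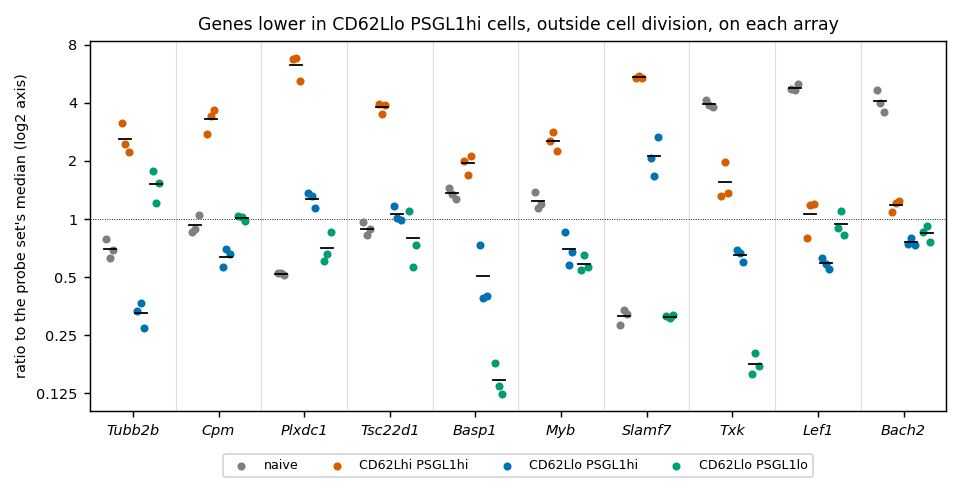
Ratios of 10 genes outside cell division that were called lower in CD62Llo PSGL1hi cells (x axis) on each of the 12 arrays, on a log2 axis, with points for arrays and bars for the mean of 3 arrays. CD62Lhi PSGL1hi arrays (orange) lie above CD62Llo PSGL1hi arrays (blue) in all 10 genes, with Txk, Lef1 and Bach2 highest in naive cells (grey).

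Among genes in no list that rose, Epas1, for the hypoxia-inducible factor HIF-2 alpha, had ratios of 2.28, 1.82 and 3.35 against 1.06, 0.891 and 1.15 (1.22 ± 0.23, adjusted p = 0.00658), and Metrnl, for a secreted cytokine-like protein, stood at 2.8, 1.52 and 2.43 against 0.959, 0.958 and 1.04 (1.15 ± 0.21, adjusted p = 0.00664). Ajuba, for a LIM domain adaptor, was at 1.76, 2.17 and 1.86 against 0.879, 0.622 and 0.744 (1.37 ± 0.19, adjusted p = 0.000703), and Btbd11, a BTB domain gene, at 1.63, 1.71 and 2.01 against 0.645, 0.815 and 0.759 (1.27 ± 0.13, adjusted p = 5.06e-05). All 4 were separated between the populations. Gpm6b, a membrane protein of the myelin proteolipid family (1.41 ± 0.20, adjusted p = 0.00062), and Trps1, a GATA-type repressor (0.84 ± 0.13, adjusted p = 0.00189), were higher as well. In naive cells Gpm6b had a mean ratio of 0.0271 ± 0.000265 (SD, n = 3).

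Markers of B cells, plasma cells and myeloid cells had 1 call each, which is 7.14%, 16.7% and 5% of the genes tested against 2.17% of all genes. B cell markers had 1 of 14 genes lower, the adaptor gene Bank1 (0.852, 0.874 and 0.703 against 1.51, 1.23 and 1.22; -0.70 ± 0.14, adjusted p = 0.0108; 0.0652 without CD62Llo PSGL1hi replicate 3 and 0.0548 without CD62Lhi PSGL1hi replicate 1). Myeloid markers had 1 of 20 lower, Cd68 (1.82, 1.45 and 1.74 against 2.75, 3.25 and 2.13; -0.69 ± 0.16, adjusted p = 0.0278). The adjusted p of Cd68 was 0.182 after quantile normalization, 0.0662 with only the 6 arrays fitted, 0.166 without CD62Llo PSGL1hi replicate 2, 0.0628 without CD62Llo PSGL1hi replicate 3, 0.0834 without CD62Lhi PSGL1hi replicate 1 and 0.125 without CD62Lhi PSGL1hi replicate 2. Plasma cell markers had 1 of 6 lower, Sdc1, for syndecan 1 (0.992, 1.13 and 1.14 against 2.73, 1.96 and 3.31; -1.26 ± 0.15, adjusted p = 0.000147). Its 3 other probe sets ranged from -2.42 to -0.14, with 1 called lower. Averaged over the plasma cell list, Sdc1 included, the log2 ratio ranged from 0.192 to 0.677 on CD62Lhi and from -0.01 to 0.285 on CD62Llo arrays. For B cells it ranged from -0.0743 to 0.0948 and from -0.0222 to 0.00754. The median difference of the plasma cell list was -0.04, with 4 of its 6 genes below 0 and 2 above. None of 14 dendritic cell, 10 erythroid and platelet or 14 stromal and endothelial markers was called in limma, and 0, 1 and 1 of them had an unadjusted p under 0.05. Their part in the differences above was not tested.

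Of the metabolic and stress lists, 1 held a called gene in limma. Of 27 type I interferon response genes 0 were called and 6 had an unadjusted p under 0.05. The count called higher was 3 without CD62Lhi PSGL1hi replicate 3, 2 with a replicate block and 1 after quantile normalization or with array weights. Ifitm1, for an antiviral membrane protein, had ratios of 5.97, 5.12 and 11.1 against 2.8, 1.74 and 5.96 (1.18 ± 0.33, adjusted p = 0.091). Under other settings the adjusted p of Ifitm1 was 0.00274 with a replicate block, 0.0367 with array weights and 0.00215 without CD62Lhi PSGL1hi replicate 3. None of 17 glycolysis, 33 oxidative phosphorylation, 25 unfolded protein response, 22 survival and death or 23 cytosolic ribosomal protein genes was called, and those at an unadjusted p under 0.05 numbered 0, 0, 3, 3 and 0. Of 19 cholesterol synthesis genes 1 was called lower, and 16 had a difference below 0. At an unadjusted p under 0.05 in limma 5 were lower and 0 higher. Averaged over the list, the log2 ratio ranged from 0.00379 to 0.13 on CD62Lhi and from -0.194 to -0.0287 on CD62Llo arrays. The called gene was Fdps, for farnesyl diphosphate synthase (-0.52 ± 0.11, adjusted p = 0.0194). Other settings gave Fdps an adjusted p of 0.1 without CD62Llo PSGL1hi replicate 2, 0.0896 without CD62Llo PSGL1hi replicate 3 and 0.0932 without CD62Lhi PSGL1hi replicate 2.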

How the data were processed

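Signals of 12 Affymetrix whole-genome mouse arrays came from MAS5, per the submitters' processing notes. Neither its version nor its scaling is given in the sources used here. The deposited values are linear ratios: by these values the authors had divided every probe set by that probe set's median, which lay within 0.002 of 1 for 99.7% of 45101 probe sets. Detection calls were not used here, so that depth and signal over background are unknown and the number of arrays limits the precision (median SE 0.118).

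Values were taken to log2 without a pseudocount, filter or rescaling. The platform annotation gave 1 symbol to 34945 probe sets and several to 932. For each of 18193 genes 1 probe set was kept, preferring one with no cross-hybridisation suffix, then one built on a curated RefSeq transcript, then the lowest number.

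limma 3.58.1 (R 4.3.3) fitted 1 mean per population on all 12 arrays with lmFit and eBayes (8 residual and 7.31 prior degrees of freedom). Tests were two-sided, with Benjamini-Hochberg adjustment over all genes. Exact permutation of 3 against 3 arrays cannot go below p = 0.1 and was not used.

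Arrays sharing a replicate number deviated together: between the CD62Llo and CD62Lhi PSGL1hi arrays the correlations were 0.345, 0.278 and 0.456 over genes. With CD62Llo PSGL1lo arrays they were 0.373, 0.137 and 0.126 for CD62Llo PSGL1hi and 0.283, 0.109 and 0.263 for CD62Lhi PSGL1hi. With naive arrays they ranged from -0.0758 to 0.167. The pairing assumes that a replicate number in the titles stands for 1 of the design text's 3 sorts. A replicate block within the 9 CD44+ arrays is given where it changes a call.

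Genes named were gate, CD3 and Fas genes, the largest changes among called genes without overlap, called list members (of cell division, some of them), some uncalled ones and T cell state genes; others enter as counts. The counts of which array was highest were chosen after seeing the data. Members, lists and this rule were chosen with earlier results of these data known. Alternatives were another probe set, 2 scalings, 6 arrays only, the block, a robust prior, array weights and leaving out each array.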

Additional observations from a re-analysis of the deposited data

How the results depend on the processing

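Of the 394 called genes, 199 were called under each of the 13 alternatives. After quantile normalization 606 genes were called, 285 higher and 321 lower, so that 47% of calls were higher against 34.3% of the 394. The replicate block, which pairs arrays by replicate number, gave 587 calls, 248 higher and 339 lower (42.2% higher). With it, 390 of the 394 calls were kept. The other settings gave 307 to 458 calls, and leaving out 1 array 265 to 373. Cell division genes called lower numbered 85 to 106, and 72 to 99 with 1 array left out. Among called genes Mmp14 (-0.48 ± 0.10) turned to 0.0095 (adjusted p = 0.987) with the most variable probe set of each gene. Among genes not called, Eomes turned to 0.11 after quantile normalization. With 1 array left out, Ptprc ranged from -0.018 to 0.074, Cd3d from -0.0091 to 0.11, Fas from -0.10 to 0.14 and Gzmb from -0.0062 to 0.53. The causes were not tested. Brightness is unknown, so that dim probe sets could not be left out, and the presence of a marker cannot be read from ratios.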
